A study of Mus musculus with 34 samples.

Results

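Solute carriers are the large superfamily of membrane proteins that move nutrients, ions, metals and metabolites across the plasma membrane and the membranes of mitochondria, Golgi and lysosomes. Their genes were taken as every row of the gene count table whose symbol begins with Slc, a number, the letter a and a number, which gave 199 of 13108 genes in 45 families. Of these, 194 carry a complete solute carrier name. The other 5, Slc9a3r1, Slc9a3r2, Slc2a4rg-ps, Slc4a1ap and Slc7a6os, match by their letters and are not transporters. They stay in the counts of members below. Roles hold them apart, and the counts by family and of the 194 carriers by level leave them out. Carriers that are named differently do not match. Of these, a separate list of 46 was followed, among them Slco and Mfsd genes, of which 42 were in the table, and Slc35 genes with other letters were not. All 199 symbols matched a gene of the GENCODE vM21 annotation of GRCm38, from which coordinates and exon lengths come.

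Solute carriers work by letting a substrate bind on one side of a membrane and releasing it on the other, driven by the gradient of the substrate or of a coupled ion, in general without direct use of ATP. The Slc25 family sits in the inner mitochondrial membrane and exchanges nucleotides, phosphate and metabolites, the Slc39 family brings zinc and other metals into the cytoplasm, and the Slc30 family removes zinc from it. In hematopoietic cells, amino acid carriers such as Slc7a5 with its partner Slc3a2 are known for supplying growth, Slc40a1 (ferroportin) for the export of iron, and Slc20a2 (PiT-2) for the uptake of phosphate with sodium.

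HSCs (LSK CD48-CD150+ bone marrow cells) of C57BL/6 mice were sorted 100 cells to a library from Ythdf2CKO mice (Ythdf2 fl/fl;Vav-iCre), in which Vav-iCre removes floxed exon 2 of the m6A reader Ythdf2 in hematopoietic cells, and from Ythdf2CTL littermates (Ythdf2 fl/fl). All mice carry the allele with GFP fused to Ythdf2. There were 4 young Ythdf2CTL and 4 young Ythdf2CKO mice, aged 8 to 12 wk, and 4 aged Ythdf2CTL and 5 aged Ythdf2CKO mice, aged 1 yr. Each mouse gave 2 SMART-Seq2 libraries, which were summed, and the mouse was the replicate, although the sample descriptions treat each library as one. Library B of aged Ythdf2CTL mouse 99 was left out for its low depth, which left 33 libraries of 17 mice.

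The libraries held between 1859784 and 7784627 counts, and a mouse between 2218618 and 10125624. A count of 3, taken as the floor of detection, corresponds to between 0.296 and 1.35 CPM per mouse, which covers counting error only because the libraries have no molecular identifiers. The targeted gene went against the label in 2 aged mice. Ythdf2 stood at 188 CPM in aged Ythdf2CKO mouse 121, against 72.4 to 87.7 CPM in the other 4 Ythdf2CKO mice, and at 70.5 CPM in the mouse labelled aged Ythdf2CTL 124, against 142 to 179 CPM in the other 3. The main counts in aged mice, and the differences of 11 of the 13 carriers whose aged groups lay apart, are therefore also given without these 2 mice. Y-linked counts were present in 3 young Ythdf2CTL, 1 young Ythdf2CKO, 1 aged Ythdf2CTL and 1 aged Ythdf2CKO mouse, so sex was not balanced. Of 12 HSC markers all were in the table, and none was at 0 in a whole group. Their summed level was between 1658 and 2046 CPM in young Ythdf2CTL and 2179 and 2595 CPM in young Ythdf2CKO mice, so the young sums lay apart. In aged mice it was between 1525 and 2886 CPM in Ythdf2CTL and 2176 and 2750.0 CPM in Ythdf2CKO. Of single markers, Ly6a (Sca-1) lay apart in young mice, at 254 to 340 CPM in Ythdf2CTL and 417 to 906 CPM in Ythdf2CKO. Vwf also lay apart there at lower levels, and the other HSC markers, Kit and Hlf among them, overlapped between the young genotypes. The 5 of 11 lymphoid markers in the table summed to between 134 and 167 CPM in young Ythdf2CTL, 198 and 259 CPM in young Ythdf2CKO, 54.9 and 92.7 CPM in aged Ythdf2CTL and 71.3 and 106 CPM in aged Ythdf2CKO mice, with Cd79a and Il7r at 0 in all young mice. These sums differed between genotypes in young mice and between ages without overlap. They came almost wholly from Cd48 and Cd79b, as Cd4, Cd79a and Il7r were at most 3.11 CPM in any mouse. Cd48, which the sort selects against, was between 53.8 and 106 CPM in young and between 0.629 and 28.2 CPM in aged mice. Cd79b was between 78.6 and 152 CPM in young and between 32.5 and 104 CPM in aged mice, which overlap. The 9 of 10 megakaryocyte and platelet markers in the table summed to between 549.98 and 944 CPM in young Ythdf2CTL, 1098 and 3355 CPM in young Ythdf2CKO, 377 and 590.4 CPM in aged Ythdf2CTL and 580.4 and 2099 CPM in aged Ythdf2CKO mice, and none was at 0 in a whole group. This list was higher in Ythdf2CKO mice, without overlap in young mice and with overlap in aged mice by mouse 121 alone. Pf4 was its largest part, at 294 CPM in mouse 121 and between 916 and 1381 CPM in the other aged Ythdf2CKO mice. Gp9 was mostly lower in young Ythdf2CKO mice, at 43.7 to 76.1 CPM against 75.9 to 97.6 CPM in young Ythdf2CTL mice. The part of these lists in the results below was not tested. In bulk samples, fewer cells of a type and less RNA per cell cannot be told apart. Young and aged libraries carry different library series in their names, so age and series cannot be told apart.

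The most abundant solute carrier transcript of HSCs was that of a mitochondrial carrier. Levels are CPM scaled by the TMM method over all 17 mice, and genes are compared with each other only as CPM per kb of exon. Slc25a5, the adenine nucleotide translocase that exchanges ADP for ATP, had the highest level at 985 CPM per kb. The runner-up, the sugar transporter Slc50a1, had 161 CPM per kb, followed by the related translocase Slc25a4 at 126, the oxoglutarate carrier Slc25a11 at 120, the heme transporter Slc48a1 at 115, the glutathione carrier Slc25a39 at 104 and the phosphate carrier Slc25a3 at 86.3 CPM per kb. The level of Slc25a5 overlapped between genotypes at each age, being between 1399 and 2328 CPM in young Ythdf2CTL and 1692 and 2022 CPM in young Ythdf2CKO mice, and between 992 and 1588 CPM in aged Ythdf2CTL and 1167 and 1999 CPM in aged Ythdf2CKO mice. The sources used here do not give the treatment of reads shared by close paralogs and pseudogene copies, so the split between Slc25a5 and Slc25a4 is uncertain. Of the 194 carriers, 181 had a mean of at least 1 CPM, 131 of at least 10 CPM and 23 of at least 100 CPM. The median carrier had 18.1 CPM, and the 5 most abundant held 30.4% of the summed level. The amino acid carriers with the highest levels per kb were Slc3a2, at 63.9 CPM per kb, and the glutamine carrier Slc1a5, at 62.2 CPM per kb. Slc20a2 was a low gene on this scale, with 4.00 CPM per kb.

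The summed level of all members was 9429 ± 341 CPM (SD, n = 4) in young Ythdf2CTL and 9545 ± 585 CPM (n = 4) in young Ythdf2CKO mice. In aged mice it was 10229 ± 689.6 CPM (n = 4) in Ythdf2CTL and 10826 ± 376 CPM (n = 5) in Ythdf2CKO mice. A mouse gave between 0.817% and 1.17% of its counts to solute carriers, and the groups of different genotype overlapped at each age.

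The first comparison asked which carriers differ between young Ythdf2CKO and Ythdf2CTL HSCs. None of the 172 members that passed the filter on low counts was called by edgeR's quasi-likelihood test (adjusted p below 0.05), where 0.174% of all 11526 genes were called. At an unadjusted p below 0.05, 7 members were higher and 2 lower, that is 4.07% and 1.16%, against 4.26% and 2.80% of all genes. The groups did not overlap for 1 member that was higher in every Ythdf2CKO mouse and 2 that were lower, or 0.581% and 1.16%, against 2.68% and 2.09% of all genes. These shares are near or below the background. The median log2 fold change of members was 0.05, and that of all genes was -0.00093.

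Slc14a1, the urea transporter of red cells and endothelium, had the smallest p among members in young mice. Its level in the 4 young Ythdf2CTL mice was 145, 109, 128 and 92.7 CPM and in the 4 young Ythdf2CKO mice 255, 192, 137 and 252 CPM. The groups overlapped by Ythdf2CKO mouse 3 (137 CPM) alone, and the difference was 0.82 on the log2 scale (SE 0.20, unadjusted p = 0.00105, edgeR adjusted p = 0.209). Slc14a1 was the 1 member called by DESeq2, which called 0.668% of all genes, and by the likelihood ratio test over mice, which called 0.581%. It was also the 1 member called by the quasi-likelihood test without young Ythdf2CKO mouse 3, which called 0.153%. The likelihood ratio test over libraries, which takes both libraries of a mouse as separate samples and called 0.850%, also called only Slc14a1 among members. In aged mice its level was 205, 176, 74.9 and 72.3 CPM in Ythdf2CTL and 272, 343, 337, 95.0 and 168 CPM in Ythdf2CKO mice, where the groups overlap and the log2 difference was 0.89 (SE 0.40, unadjusted p = 0.0443, edgeR adjusted p = 0.481).

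The 3 members without overlap in young mice were Slc11a2, Slc38a2 and Slc16a10. Slc11a2, the iron transporter DMT1, was at 26.6, 27.3, 22.8 and 31.8 CPM in young Ythdf2CTL and at 34.0, 32.3, 40.2 and 34.7 CPM in young Ythdf2CKO mice (log2 difference 0.38, SE 0.23, edgeR adjusted p = 0.817). Slc38a2, a carrier of small neutral amino acids, was at 233, 296, 201 and 189 CPM against 179, 187, 179 and 184 CPM (log2 difference -0.33, SE 0.16, edgeR adjusted p = 0.707). Slc16a10, an aromatic amino acid carrier, was at 15.2, 15.4, 15.1 and 22.4 CPM against 12.8, 10.4, 5.55 and 14.9 CPM (log2 difference -0.63, SE 0.37, edgeR adjusted p = 0.821). In aged mice the groups overlapped for all 3. They were chosen for lying apart and by no test.

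Roles were given to whole families, whatever a single member carries. Slc16a10 thus counts with the monocarboxylates and other organic ions, and Slc5a6 and Slc2a9 count with the sugars and polyols. By role, sugar and polyol carriers were above 0 in young mice in 11 of 14 tested members (median log2 0.31). Carriers of protons, bicarbonate and inorganic ions were below 0 in 10 of 16 (median -0.22). Mitochondrial carriers were above 0 in 24 of 39 (median 0.06), amino acid carriers in 14 of 25 (median 0.02) and metal and heme carriers in 13 of 24 (median 0.05). No role held a called member, and the phosphate carriers Slc20a1 and Slc20a2 had a median of -0.05. The level of Slc20a2 was 9.01, 5.96, 18.0 and 15.5 CPM in young Ythdf2CTL and 6.92, 15.3, 11.3 and 7.81 CPM in young Ythdf2CKO mice, groups that overlap, with a log2 difference of -0.23 (SE 0.44, edgeR adjusted p = 0.968).

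**Figure D1:**
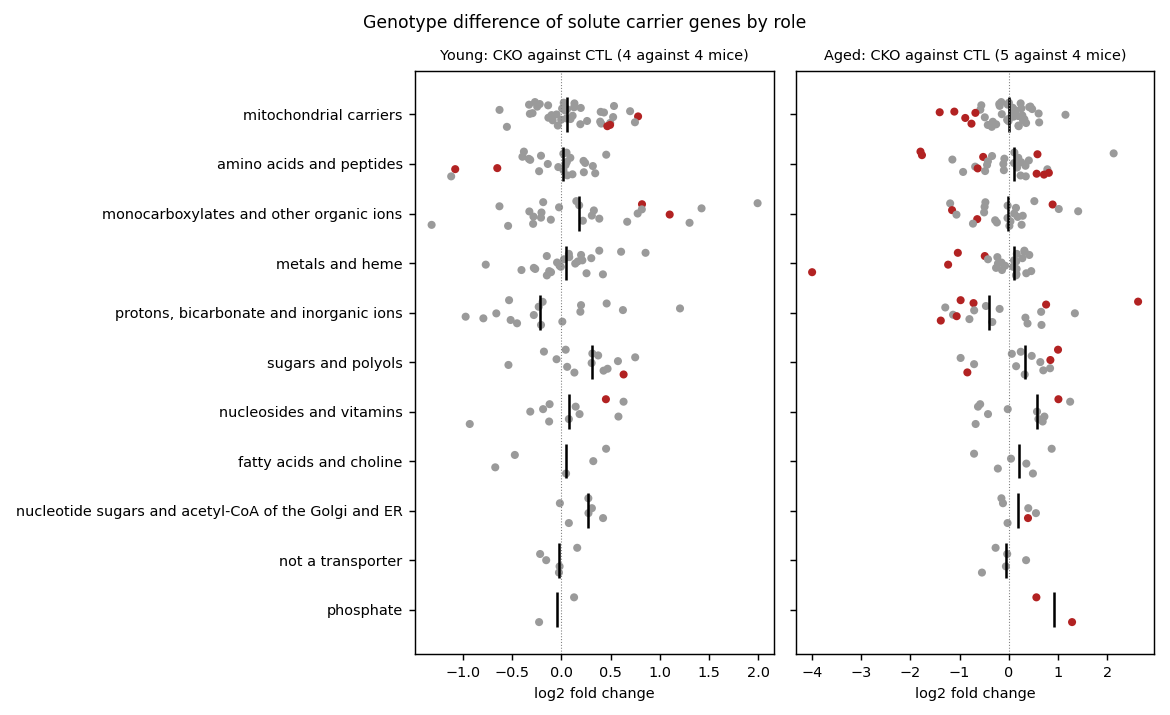
Log2 fold change (horizontal axis) of each tested solute carrier gene, Ythdf2CKO against Ythdf2CTL, in young (left, 172 genes) and aged mice (right, 177 genes), in rows by role. Red points have an unadjusted p below 0.05 and black ticks are medians; most medians lie near 0, and the widest spread to the left in aged mice is Slc40a1 at -3.99.

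The second comparison asked the same in aged mice. Again none of 177 tested members was called by edgeR's quasi-likelihood test, which called 0% of all 11961 genes. At an unadjusted p below 0.05, 13 members were higher and 20 lower in Ythdf2CKO, or 7.34% and 11.3%, against 4.45% and 5.65% of all genes. For 5 members every Ythdf2CKO mouse lay above every Ythdf2CTL mouse, and for 8 every one lay below, which is 2.82% and 4.52%, against 1.78% and 1.70% of all genes. The 5 were Slc20a2, Slc19a1, Slc1a5, Slc7a5 and Slc12a7. The 8 were Slc40a1, Slc30a4, Slc30a7, Slc39a14, Slc15a2, Slc25a27, Slc38a6 and Slc43a2. Without mice 121 and 124, 12 and 17 members lay apart, against 6.07% and 5.45% of all genes, and all 13 remained among them. That alternative was chosen after seeing the data, and smaller groups overlap less by construction. Without these mice no member was called by edgeR, which then called 0.333% of all genes. The log2 difference was then 1.37 for Slc20a2 (edgeR adjusted p = 0.0753), 0.89 for Slc19a1, 0.58 for Slc1a5, 0.63 for Slc7a5 and 0.66 for Slc12a7. It was -3.86 for Slc40a1, -1.67 for Slc15a2 (edgeR adjusted p = 0.0834), -1.57 for Slc25a27, -1.38 for Slc39a14, -0.87 for Slc30a4 and -0.50 for Slc30a7. The other adjusted p values lay between 0.136 and 0.459, and those of Slc38a6 and Slc43a2 are not given here. DESeq2 called 3 members, Slc19a1, Slc20a2 and Slc40a1, where it called 0.869% of all genes. The likelihood ratio test over libraries, which takes both libraries of a mouse as separate samples, called 10 members, where it called 3.73%.

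Slc20a2, the sodium-dependent phosphate transporter on chromosome 8 (GRCm38 chr8:22476788-22569612, plus strand), had the smallest p among members in aged mice. It was at 26.7, 18.98, 13.8 and 22.97 CPM in the 4 aged Ythdf2CTL mice and at 50.7, 59.0, 43.4, 44.3 and 53.0 CPM in the 5 aged Ythdf2CKO mice. Every aged Ythdf2CKO mouse, mouse 121 included, lay above every other mouse of the series. The log2 difference was 1.28 (SE 0.27, unadjusted p = 0.000295, edgeR adjusted p = 0.281), and it stayed between 1.12 and 1.43 over 18 alternatives, 3 of which called it. The related phosphate transporter Slc20a1 was at 81.2, 47.4, 43.4 and 34.9 CPM in aged Ythdf2CTL and at 64.1, 93.4, 67.7, 86.2 and 68.8 CPM in aged Ythdf2CKO mice. These groups overlap by Ythdf2CTL mouse 65 (log2 difference 0.56, SE 0.26, unadjusted p = 0.0487, edgeR adjusted p = 0.492).

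Slc19a1, the reduced folate carrier, was at 80.2, 63.4, 88.8 and 84.6 CPM in young Ythdf2CTL and at 103, 121, 71.7 and 137 CPM in young Ythdf2CKO mice. In aged mice it was at 94.4, 97.8, 66.8 and 64.6 CPM in Ythdf2CTL and at 135, 220.4, 128, 168 and 157 CPM in Ythdf2CKO mice. The aged groups lay apart, and the young groups overlapped by mouse 3 alone. The log2 difference was 1.01 in aged mice (SE 0.22, unadjusted p = 0.000415, edgeR adjusted p = 0.281) and 0.45 in young mice (SE 0.20, unadjusted p = 0.0414, edgeR adjusted p = 0.674). Slc19a1 and Slc14a1 were the 2 members with an unadjusted p below 0.05 in the same direction at both ages. The young and aged comparisons share no mouse: of the 9 members past that p in young mice 6 had the same sign in aged mice (66.7%, against 75.3% of 805 genes), and of 32 past it in aged mice 20 had the same sign in young mice (62.5%, against 71.9% of 1166 genes).

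RefSeq (GRCm38.p6) gives 2 start sites for Slc19a1 on chromosome 10, and the 250 bases before each are shown because it was the one carrier with a like difference at both ages whose promoter is in the sequence table. Capitals mark the GC box GGGCGG and the metal response core TGCACNC or TGCGCNC, on either strand.
Slc19a1, start 1, chr10:77032489-77032738, plus strand: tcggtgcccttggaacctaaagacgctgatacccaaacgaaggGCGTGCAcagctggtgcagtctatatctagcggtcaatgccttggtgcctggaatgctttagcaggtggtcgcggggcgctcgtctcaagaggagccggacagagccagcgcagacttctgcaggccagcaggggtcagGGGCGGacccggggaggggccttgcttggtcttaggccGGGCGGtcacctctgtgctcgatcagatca
Slc19a1, start 2, chr10:77032962-77033211, plus strand: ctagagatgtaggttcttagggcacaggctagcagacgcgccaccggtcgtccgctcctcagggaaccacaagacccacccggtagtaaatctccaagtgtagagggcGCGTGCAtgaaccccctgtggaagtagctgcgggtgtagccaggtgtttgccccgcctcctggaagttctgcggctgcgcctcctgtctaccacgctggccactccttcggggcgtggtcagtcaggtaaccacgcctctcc
The first holds 2 GC boxes and 1 metal response core and the other 1 metal response core, and neither holds the E-box CACGTG or the amino acid response core TGATGNAAN. Of 32817 promoters of this length, 32.7% hold the GC box, 21.4% the metal response core, 6.02% the E-box and 3.44% the amino acid response core. Of 200 promoters of 149 member genes, 60.0%, 26.5%, 13.5% and 3.00% hold them. The member genes were all counted in HSCs, and the 32817 promoters were not limited to such genes. The sets are thus unlike, and the difference between them was not tested. A match describes letters and not a bound site.

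Amino acid carriers had members on both sides in aged mice, where 4 were higher and 4 were lower among 29 tested (unadjusted p below 0.05, against 4.45% and 5.65% of all genes). Slc1a5 (ASCT2), which imports glutamine, was at 314, 245, 156 and 259 CPM in aged Ythdf2CTL and at 386, 390, 318, 386 and 333 CPM in aged Ythdf2CKO mice, a log2 difference of 0.58 (SE 0.19, edgeR adjusted p = 0.380). Slc7a5 (LAT1), which exchanges glutamine for large neutral amino acids, was at 59.0, 73.4, 44.5 and 75.4 CPM against 83.8, 92.4, 90.1, 99.7 and 97.6 CPM, a log2 difference of 0.56 (SE 0.20, edgeR adjusted p = 0.398). The lowest Ythdf2CKO mouse lay above the highest Ythdf2CTL mouse for both, by little for Slc1a5. Slc3a2, the heavy chain that carries Slc7a5 to the membrane, was between 198 and 258 CPM in aged Ythdf2CTL and between 235 and 255 CPM in aged Ythdf2CKO mice, groups that overlap (log2 difference 0.10, SE 0.15, edgeR adjusted p = 0.866). Within the Slc7 family 3 of 7 tested members had a higher level at an unadjusted p below 0.05 and none a lower one, against 4.45% and 5.65% of all genes, the others being Slc7a4 (log2 difference 0.81, edgeR adjusted p = 0.315) and Slc7a6 (0.71, edgeR adjusted p = 0.398).

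Among the amino acid and peptide carriers with lower levels, the peptide transporter Slc15a2 (PEPT2) was at 24.5, 43.3, 28.9 and 16.4 CPM in aged Ythdf2CTL and at 9.67, 7.01, 11.9, 0 and 12.04 CPM in aged Ythdf2CKO mice (log2 difference -1.79, SE 0.76, edgeR adjusted p = 0.451). The 0 belonged to mouse 121. In young mice Slc15a2 was also at 0 in 1 Ythdf2CTL and 1 Ythdf2CKO mouse, and the other young mice had between 12.1 and 36.8 CPM. The lysosomal amino acid carrier Slc36a1 was at 8.91, 14.4, 22.2 and 32.2 CPM against 5.32, 1.85, 10.5, 5.79 and 5.02 CPM, which overlap by 1 mouse (log2 difference -1.76, SE 0.55, edgeR adjusted p = 0.347).

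Among the metal carriers 4 had aged groups that lay apart, all of them lower in Ythdf2CKO, where 1.70% of all genes lay apart lower and 1.78% higher. Slc40a1, the iron exporter ferroportin (GRCm38 chr1:45908068-45926523, minus strand), was at 8.91, 13.6, 2.98 and 24.7 CPM in aged Ythdf2CTL and at 1.63, 0, 0, 1.58 and 0.573 CPM in aged Ythdf2CKO mice. These levels rest on 85, 33, 16 and 176 counts and on 15, 0, 0, 12 and 4 counts. In young mice of either genotype Slc40a1 was between 3.19 and 19.5 CPM, so the aged Ythdf2CKO mice were the 5 lowest of the series. The fitted log2 difference in aged mice was -3.99 (SE 1.06, unadjusted p = 0.00213, edgeR adjusted p = 0.297), and 2 of the 5 Ythdf2CKO mice had no counts. Ferroportin is abundant in macrophages and erythroid cells, and the lineage antibodies of the sort, which remove cells that bind them, include those to CD11b and Ter119. The 7 of 9 erythroid markers in the table summed to between 52.0 and 108 CPM in aged Ythdf2CTL and between 51.3 and 101 CPM in aged Ythdf2CKO mice, with Hba-a2 at 0 in all aged Ythdf2CTL mice. The 10 myeloid markers summed to between 569 and 1248 CPM and between 797 and 1262 CPM, with none at 0 in a whole aged group, and the part of either list was not tested.

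The zinc carriers Slc30a4 and Slc30a7, which move zinc out of the cytoplasm into vesicles and the Golgi, were also lower without overlap. Slc30a4 was at 17.7, 20.2, 20.9 and 31.1 CPM in aged Ythdf2CTL and at 11.8, 8.08, 11.7, 11.4 and 11.5 CPM in aged Ythdf2CKO mice (log2 difference -1.03, SE 0.35, edgeR adjusted p = 0.387). Slc30a7 was at 103, 97.3, 104 and 97.9 CPM against 91.8, 78.0, 60.3, 68.7 and 58.3 CPM (log2 difference -0.49, SE 0.18, edgeR adjusted p = 0.412). Slc39a14, which imports zinc and iron not bound to transferrin, was at 10.5, 13.6, 14.5 and 10.9 CPM against 3.37, 6.13, 7.78, 6.45 and 2.44 CPM (log2 difference -1.23, SE 0.52, edgeR adjusted p = 0.443). Of all 24 tested metal carriers, these 4 included, 13 lay above 0 and 11 below, with a median log2 difference of 0.10.

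Of 40 tested mitochondrial carriers, 5 were lower and none higher at an unadjusted p below 0.05 in aged mice, against 5.65% and 4.45% of all genes, and the median log2 difference was 0.0028. Slc25a27 (UCP4), an uncoupling protein, was at 12.9, 17.3, 22.5 and 11.6 CPM in aged Ythdf2CTL and at 6.85, 2.73, 5.64, 6.58 and 8.46 CPM in aged Ythdf2CKO mice (log2 difference -1.40, SE 0.48, edgeR adjusted p = 0.387). The iron carrier Slc25a37 (mitoferrin-1) was at 30.2, 30.5, 83.8 and 70.2 CPM against 30.9, 30.8, 25.5, 27.4 and 29.8 CPM. Only 2 of the 4 Ythdf2CTL mice, 114 and 124, lay far above the Ythdf2CKO range for this gene (log2 difference -0.88, SE 0.32, edgeR adjusted p = 0.398). The abundant carriers Slc25a4 and Slc25a11 overlapped between genotypes.

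Slc12a7 (KCC4), an ion carrier that couples potassium to chloride, was at 16.3, 11.96, 15.1 and 15.97 CPM in aged Ythdf2CTL and at 21.8, 23.8, 24.1, 32.8 and 22.4 CPM in aged Ythdf2CKO mice (log2 difference 0.76, SE 0.31, edgeR adjusted p = 0.435). The groups did not overlap. Carriers of protons, bicarbonate and inorganic ions had the lowest median of any role with over 10 tested members, at -0.40, with 11 of 18 below 0. Sugar and polyol carriers, counted by family and so including Slc5a6 (log2 difference 0.32), were above 0 in 10 of 13, with a median of 0.32. Among them the glucose transporter Slc2a1 was at 31.8, 36.7, 8.57 and 15.7 CPM against 31.1, 48.1, 66.7, 38.9 and 44.7 CPM, groups that overlap (log2 difference 1.00, SE 0.40, edgeR adjusted p = 0.435). The vesicular monoamine carrier Slc18a2 was at 446, 291, 289.7 and 232 CPM against 129, 224, 259.7, 233 and 158 CPM (log2 difference -0.64, SE 0.24, edgeR adjusted p = 0.403).

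**Figure D2:**
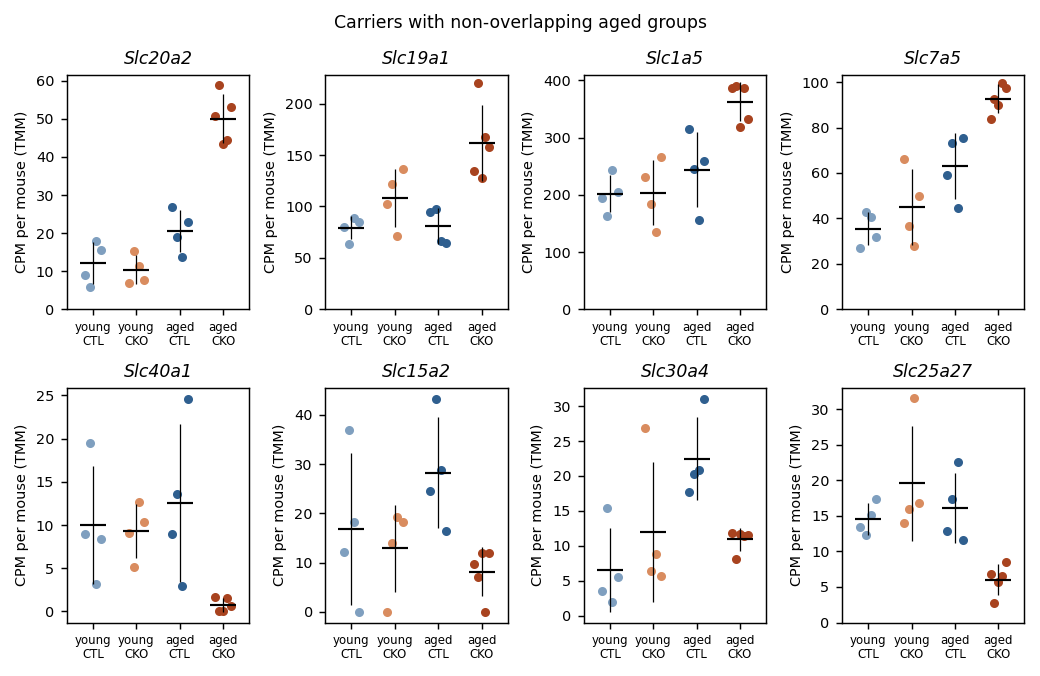
CPM per mouse (vertical axes) of 8 carriers whose aged groups do not overlap, in young and aged Ythdf2CTL (CTL) and Ythdf2CKO (CKO) mice. Points are mice, horizontal bars means and vertical bars SD; Slc20a2, Slc19a1, Slc1a5 and Slc7a5 are higher in all 5 aged CKO mice than in all 4 aged CTL mice, and Slc40a1, Slc15a2, Slc30a4 and Slc25a27 are lower.

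Transporters of other classes were counted beside the members. Of 41 tested carriers outside the naming rule, 5 were higher and none lower at an unadjusted p below 0.05 in aged Ythdf2CKO mice. Of 24 ABC transporters 2 were lower, and of 20 P-type ATPases, which pump ions or lipids with ATP, 5 were lower, with medians of -0.30 and -0.45. Over all genes 4.45% were higher and 5.65% lower. No gene of these lists was called in either genotype comparison.

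Whether the genotype difference itself differed between ages was tested by an interaction term over all 17 mice. None of 189 tested members was called. Of all 12352 genes 0% were called by edgeR's quasi-likelihood test and 0% by DESeq2. The likelihood ratio test over libraries called 0.0256% of the 11737 genes it tested. At an unadjusted p below 0.05, 4 members were higher and 11 lower, or 2.12% and 5.82%, against 2.06% and 2.70% of all genes. The smallest unadjusted p values belonged to Slc40a1 (log2 interaction -3.88, SE 1.16, p = 0.00303), Slc25a27 (-1.84, SE 0.55, p = 0.00322), Slc36a1 (-2.24, SE 0.70, p = 0.00426) and Slc20a2 (1.51, SE 0.48, p = 0.00481), each with an edgeR adjusted p of 0.942. The monocarboxylate carrier Slc16a9 followed (-2.15, SE 0.86, p = 0.0202, edgeR adjusted p = 0.998). It was at 6.82, 14.3, 5.66 and 3.10 CPM in young Ythdf2CTL and at 17.8, 10.2, 23.3 and 12.8 CPM in young Ythdf2CKO mice (log2 difference 1.10, SE 0.48, edgeR adjusted p = 0.651). In aged mice it was at 8.91, 51.6, 9.31 and 7.70 CPM in Ythdf2CTL and at 13.4, 5.16, 10.1, 3.42 and 13.9 CPM in Ythdf2CKO mice (log2 difference -1.06, SE 0.65, edgeR adjusted p = 0.615). Its groups overlapped at both ages, and 1 mouse, aged Ythdf2CTL 99, stood far above the rest.

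Levels in aged and young HSCs were compared within each genotype, which is also a comparison of the library series. Members lay higher in the aged mice more often than genes at large. In Ythdf2CTL mice 138 of 189 (73.0%) were above 0, against 55.8% of all genes, with a median log2 difference of 0.33 against 0.11. In Ythdf2CKO mice 130 of 189 (68.8%) were above 0, against 54% of all genes, with a median of 0.31 against 0.07. Scaling by DESeq2's size factors gave medians of 0.32 against 0.10 and 0.29 against 0.06. The 2 comparisons share no mouse, and 107 members (56.6%) were higher in both, 28 (14.8%) lower in both and 54 (28.6%) opposite, against 42.7%, 32.9% and 24.3% of all genes.

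In Ythdf2CTL mice 14 members rose and 1 fell in the aged group, or 7.41% and 0.529%, where 6.70% and 8.07% of all genes were called by edgeR's quasi-likelihood test. In Ythdf2CKO mice 18 rose and 7 fell, or 9.52% and 3.70%, against 7.21% and 9.34% of all genes. The groups did not overlap for 13 members that were higher and 3 lower in Ythdf2CTL (6.88% and 1.59%, against 7.11% and 10% of all genes) and for 26 higher and 9 lower in Ythdf2CKO (13.8% and 4.76%, against 9.07% and 11.3%). The count in Ythdf2CTL depended on single mice. It was 6, 9, 5 and 4 without young Ythdf2CTL mouse 1, 2, 3 and 4, 6 without aged Ythdf2CTL mouse 99 and 9 without mouse 114. Over all genes 14.8% were called with all mice and 8.75%, 12.1%, 8.77%, 7.17%, 9.80% and 11.5% in these fits, so calls were lost over all genes too. Without mice 121 and 124 it was 17, of which 8 were among the 15, where 17.6% of all genes were called. The count in Ythdf2CKO was then 30, of which 24 were among the 25, where 18.1% of all genes were called, against 16.6% with all mice. Without these mice 27 members were higher and 6 lower without overlap in Ythdf2CTL (12.2% and 14.2% of all genes), and 32 and 10 in Ythdf2CKO (11.4% and 13.1%).

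Called in both genotypes, all 7 in the same direction, were Slc6a6, Slc39a1, Slc39a13, Slc2a3, Slc5a2, Slc35a4 and Slc7a5. They are 46.7% of the 15 and 28.0% of the 25. Over all genes the 1074 shared calls were 58.8% and 52.5%.

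**Figure D3:**
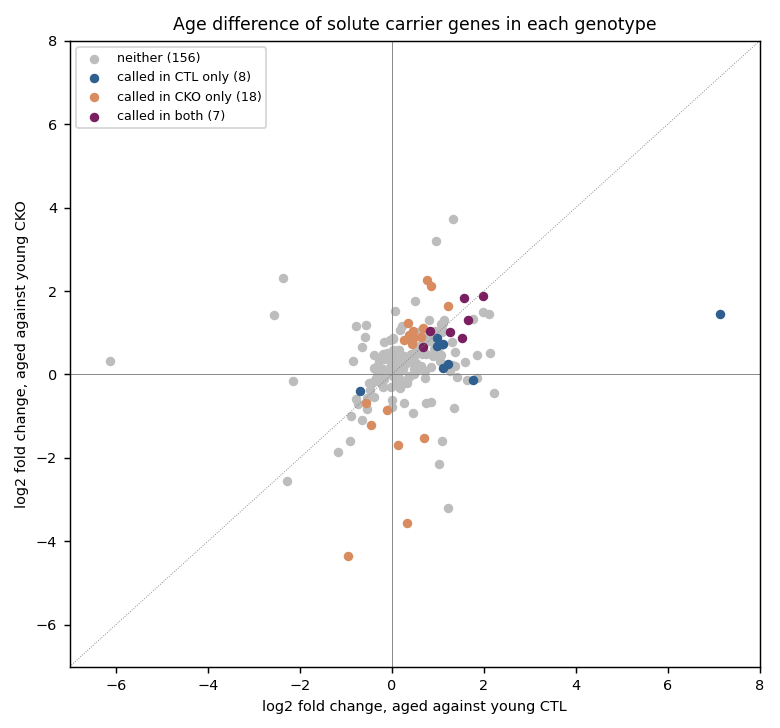
Log2 fold change of 189 solute carrier genes, aged against young, in Ythdf2CTL (horizontal axis) and Ythdf2CKO mice (vertical axis), which share no mouse. Colours give the calls (8 in CTL only, 18 in CKO only, 7 in both), most points lie in the upper right, and the point at 7.13 is Slc27a3, whose young CTL mice had no counts.

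Zinc importers of the Slc39 family, known as ZIP proteins, had members with higher levels in the aged mice of both genotypes. In Ythdf2CTL mice 3 of 11 tested rose, against 6.70% of all genes, and 9 lay above 0 (median log2 0.51). In Ythdf2CKO mice 4 of 11 rose, against 7.21% of all genes, and 10 lay above 0 (median 0.88). Slc39a1 (ZIP1), a zinc importer of the plasma membrane, was at 33.9, 34.3, 33.7 and 34.4 CPM in young and at 63.1, 243, 88.1 and 148 CPM in aged Ythdf2CTL mice. In Ythdf2CKO mice it was at 27.1, 24.7, 65.0 and 40.5 CPM in young and at 215, 142, 37.9, 220.5 and 111 CPM in aged mice. The spread was far wider in aged mice, and the Ythdf2CKO groups overlapped by mouse 94. It rose by 1.98 in Ythdf2CTL (SE 0.44, edgeR adjusted p = 0.00576) and by 1.89 in Ythdf2CKO (SE 0.42, edgeR adjusted p = 0.00492) on the log2 scale.

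Slc39a13 (ZIP13), which releases zinc from vesicles of the secretory pathway, was at 16.7, 24.9, 13.4 and 8.43 CPM in young and at 49.9, 82.5, 33.1 and 37.1 CPM in aged Ythdf2CTL mice. In Ythdf2CKO mice it was at 9.49, 17.9, 15.5 and 26.7 CPM in young and at 53.2, 43.6, 37.0, 46.8 and 35.3 CPM in aged mice. Every aged mouse lay above every young mouse. The log2 rise was 1.67 (SE 0.36, edgeR adjusted p = 0.00531) and 1.31 (SE 0.35, edgeR adjusted p = 0.0132). Slc39a11 rose in Ythdf2CTL (log2 0.97, edgeR adjusted p = 0.0427), and Slc39a7 and Slc39a9 rose in Ythdf2CKO mice (log2 0.88 and 0.95, edgeR adjusted p = 0.0130 and 0.0122). Of the 6 Slc30 exporters 3 lay above 0 in Ythdf2CTL, where 1, Slc30a4, rose, and none lay above 0 in Ythdf2CKO, where none was called. The difference between both families was not tested.

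The 250 bases before the RefSeq start of both ZIP genes (GRCm38.p6) are shown because these genes rose together in both genotypes and under every alternative. Capitals mark the GC box GGGCGG on either strand.
Slc39a1, chr3:90247942-90248191, plus strand: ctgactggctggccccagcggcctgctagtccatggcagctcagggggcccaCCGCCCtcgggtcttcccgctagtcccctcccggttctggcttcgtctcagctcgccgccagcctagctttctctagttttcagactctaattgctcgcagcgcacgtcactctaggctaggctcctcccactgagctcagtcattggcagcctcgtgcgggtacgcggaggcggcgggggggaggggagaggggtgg
Slc39a13, chr2:91070316-91070565, minus strand: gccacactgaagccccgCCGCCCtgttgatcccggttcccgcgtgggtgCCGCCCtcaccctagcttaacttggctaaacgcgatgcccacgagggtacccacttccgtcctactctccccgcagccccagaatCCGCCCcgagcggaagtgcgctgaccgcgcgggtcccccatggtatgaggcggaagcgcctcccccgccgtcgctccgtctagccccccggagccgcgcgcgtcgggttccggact
The Slc39a1 window holds 1 GC box and the Slc39a13 window 3. Neither holds the metal response core, the E-box or the amino acid response core in the letters given above, which says nothing of other spellings or of sites outside the window.

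Other carriers that rose in both genotypes move amino acids and sugars. Slc6a6, the taurine transporter, was at 35.8, 45.5, 38.6 and 31.3 CPM in young and at 67.1, 159, 108 and 101 CPM in aged Ythdf2CTL mice, a log2 rise of 1.52 (SE 0.26, edgeR adjusted p = 0.00120). In Ythdf2CKO mice it was at 23.7, 47.5, 43.8 and 38.1 CPM in young and at 56.4, 65.0, 85.8, 79.6 and 62.1 CPM in aged mice, a log2 rise of 0.86 (SE 0.24, edgeR adjusted p = 0.0189). Aged mice lay above young mice in each genotype. Slc2a3 (GLUT3), a glucose transporter, was at 69.3, 80.9, 57.9 and 55.0 CPM in young and at 240.3, 200.1, 110 and 82.1 CPM in aged Ythdf2CTL mice, a log2 rise of 1.26 (SE 0.29, edgeR adjusted p = 0.00603). In Ythdf2CKO mice it was at 104, 54.8, 71.7 and 96.1 CPM in young and at 134, 135, 178, 227 and 150 CPM in aged mice, a log2 rise of 1.01 (SE 0.27, edgeR adjusted p = 0.0143). The lowest aged Ythdf2CTL mouse, 124, lay only just above the young range.

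Slc7a5, the amino acid exchanger described above, rose by 0.82 in Ythdf2CTL (SE 0.25, edgeR adjusted p = 0.0295) and by 1.04 in Ythdf2CKO (SE 0.24, edgeR adjusted p = 0.00534) on the log2 scale. Its young levels were 27.0, 42.6, 40.5 and 32.0 CPM in Ythdf2CTL and 66.2, 36.5, 27.9 and 49.7 CPM in Ythdf2CKO mice, all below the aged mice of the same genotype. Slc5a2, the sodium-glucose cotransporter SGLT2 best known from kidney, was a low gene that rose from between 3.61 and 5.72 to between 4.48 and 18.3 CPM in Ythdf2CTL and from between 2.68 and 9.09 to between 16.1 and 29.5 CPM in Ythdf2CKO mice (log2 1.56 and 1.83, edgeR adjusted p = 0.0295 and 0.00853). Slc35a4, of the nucleotide sugar carrier family, rose by 0.69 and 0.65 on the log2 scale (edgeR adjusted p = 0.0272 and 0.0245).

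Slc20a2 had the smallest adjusted p of all members between ages in Ythdf2CKO mice. It rose by 2.28 on the log2 scale (SE 0.35, edgeR adjusted p = 0.000278) from a mean of 10.3 ± 3.83 CPM (SD, n = 4) to 50.1 ± 6.45 CPM (n = 5). In Ythdf2CTL mice its mean was 12.1 ± 5.58 CPM (n = 4) in young and 20.6 ± 5.55 CPM (n = 4) in aged mice, and the log2 difference of 0.77 did not pass (SE 0.35, edgeR adjusted p = 0.142). In the order of its levels aged Ythdf2CKO mice came first, apart from all others, and aged Ythdf2CTL, young Ythdf2CTL and young Ythdf2CKO mice followed, each overlapping the next. Slc20a1 rose by 1.11 in Ythdf2CKO mice (SE 0.29, edgeR adjusted p = 0.0114), with 0.68 in Ythdf2CTL mice (SE 0.30, edgeR adjusted p = 0.128).

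Further members called in Ythdf2CKO mice included Slc48a1 (HRG1), which exports heme from lysosomes. It was at 268, 213, 201 and 269.6 CPM in young and at 428, 392, 315, 435 and 388 CPM in aged Ythdf2CKO mice, a log2 rise of 0.72 (SE 0.14, edgeR adjusted p = 0.00216). In Ythdf2CTL mice it was at 236, 273, 286 and 260.4 CPM in young and at 399, 346, 329.6 and 348 CPM in aged mice, which do not overlap either (log2 difference 0.43, SE 0.15, edgeR adjusted p = 0.0535). Slc1a5 rose by 0.83 (SE 0.20, edgeR adjusted p = 0.00771), Slc7a4 by 1.05 (SE 0.25, edgeR adjusted p = 0.00640) and the glucose-6-phosphate exchanger Slc37a1 by 1.24 (SE 0.28, edgeR adjusted p = 0.00499). All 7 tested Slc7 members lay above 0 in Ythdf2CKO mice, with a median of 1.04, and 2 of them were called, where 54% of all genes lay above 0 and 7.21% rose.

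The 7 members that fell in aged Ythdf2CKO mice were Slc40a1, Slc25a27, Slc36a1, Slc43a2, Slc25a46, Slc35a1 and Slc16a11. Slc40a1 fell from 9.09, 5.12, 12.6 and 10.4 CPM in young Ythdf2CKO mice to the levels near the floor given above (fitted log2 -3.56, SE 0.84, edgeR adjusted p = 0.00677), and Slc25a27 fell by 1.69 (SE 0.38, edgeR adjusted p = 0.00517). The lysosomal carrier Slc36a1 fell by 1.53 (SE 0.48, edgeR adjusted p = 0.0337) and the amino acid carrier Slc43a2 by 1.21 (SE 0.41, edgeR adjusted p = 0.0492), both with groups that overlap. Slc25a46, a protein of the outer mitochondrial membrane, was at 143, 133, 262 and 172 CPM in young and at 102, 122, 94.9, 42.1 and 131 CPM in aged Ythdf2CKO mice, close but without overlap (log2 -0.85, SE 0.26, edgeR adjusted p = 0.0303). Slc35a1, the CMP-sialic acid transporter of the Golgi, was at 129, 141, 143 and 106 CPM in young and at 82.6, 95.4, 90.6, 61.4 and 77.1 CPM in aged Ythdf2CKO mice (log2 -0.67, SE 0.18, edgeR adjusted p = 0.0142). In Ythdf2CTL mice it was at 123, 130.4, 156 and 116 CPM in young and at 109, 101, 81.2 and 64.2 CPM in aged mice, also without overlap (log2 -0.57, SE 0.19, edgeR adjusted p = 0.0509). Slc16a11, an orphan monocarboxylate carrier, rested on 11, 25, 16 and 6 counts in young and on 0, 5, 0, 0 and 0 counts in aged Ythdf2CKO mice, so its fitted fold change is not given. The one member that fell in Ythdf2CTL was the peroxisomal carrier Slc25a17 (log2 -0.68, SE 0.22, edgeR adjusted p = 0.0446), which overlapped between ages.

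**Figure D4:**
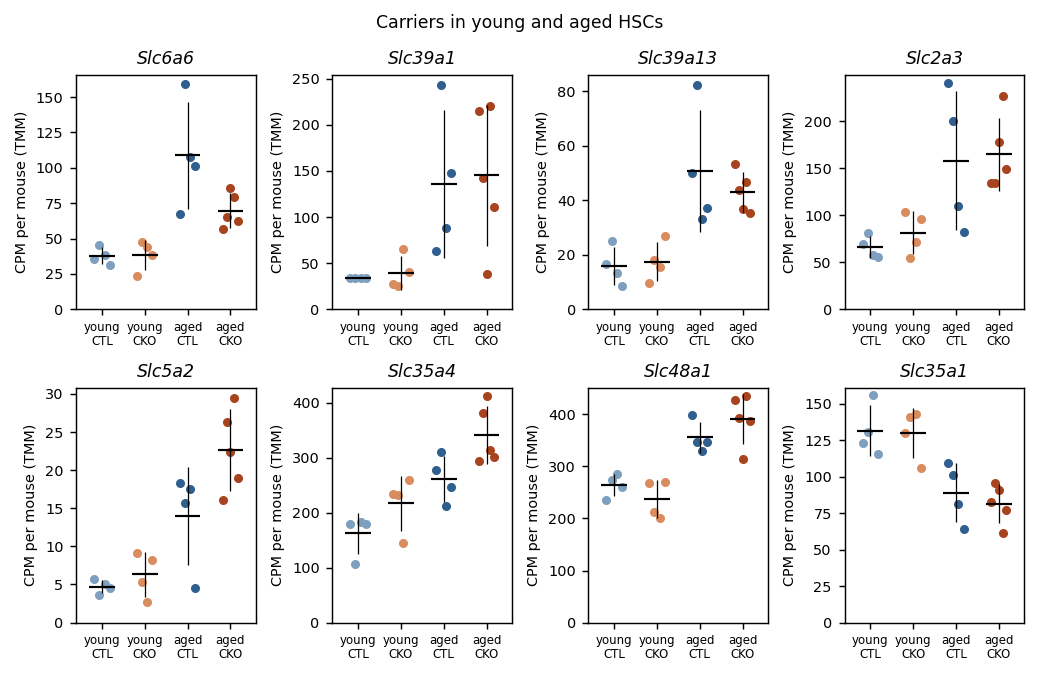
CPM per mouse (vertical axes) of 8 carriers in young and aged Ythdf2CTL (CTL) and Ythdf2CKO (CKO) mice, with means (horizontal bars) and SD (vertical bars). By the test, Slc6a6, Slc39a1, Slc39a13, Slc2a3, Slc5a2 and Slc35a4 were higher in aged than in young mice of both genotypes. Slc48a1 was higher and Slc35a1 lower in aged CKO mice, and the aged spread of Slc39a1 runs from 37.9 to 243 CPM. Age and library series cannot be told apart.

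Members called in Ythdf2CTL alone included Slc5a3, the myo-inositol transporter, at 22.4, 15.9, 17.7 and 22.7 CPM in young and 27.3, 49.5, 30.4 and 77.6 CPM in aged mice (log2 1.23, SE 0.35, edgeR adjusted p = 0.0234). Slc30a4 rose by 1.78 (SE 0.57, edgeR adjusted p = 0.0400), Slc25a28 (mitoferrin-2) by 1.12 (SE 0.32, edgeR adjusted p = 0.0242) and Slc25a45 by 1.11 (SE 0.34, edgeR adjusted p = 0.0325). The fatty acid transport protein Slc27a3 had no counts in young Ythdf2CTL mice and 2, 14, 28 and 0 counts in aged ones, and its aged mean of 2.80 CPM was at least 4.40-fold higher than the floor of 3 counts per mouse in young mice. That a member passed in one genotype and not in the other does not show a difference between them, and no member had a called interaction.

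Of the 15 members called in Ythdf2CTL mice, 4, namely Slc6a6, Slc39a1, Slc39a13 and Slc2a3, were called in all 16 alternatives, and the other 11 were lost in at least 1. Of 17 called members followed in Ythdf2CKO mice, 13 were called in all 17 alternatives, among them Slc20a2, Slc48a1, Slc39a1, Slc7a5, Slc40a1 and Slc1a5. Among other transporter classes, 7 of 25 ABC transporters and 5 of 22 P-type ATPases rose in aged Ythdf2CTL mice, and 1 ATPase fell. In Ythdf2CKO mice 4 ABC transporters and 3 ATPases rose and 2 ATPases fell. Of 41 carriers outside the naming rule, 4 rose and 2 fell in Ythdf2CTL and 7 rose and 2 fell in Ythdf2CKO mice. Of all genes 6.70% rose and 8.07% fell in Ythdf2CTL, and 7.21% rose and 9.34% fell in Ythdf2CKO mice. The mitochondrial pyruvate carrier subunit Mpc2 was among those that fell in both, by 0.84 and 0.56 on the log2 scale (edgeR adjusted p = 0.00477 and 0.0270).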

How the data were processed

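RNA-seq counts of 34 SMART-Seq2 libraries were read. The authors mapped reads to the mouse genome (mm10) using HISAT2, assigned them to genes using Rsubread, and deposited the raw whole-number counts of every library. The annotation, the use of strand and the treatment of reads that map to several genes are not given in the sources used here, so overlapping and antisense genes cannot be told apart. Of all symbols, 20 symbols had been turned into dates and were kept as they stood. Both libraries of a mouse were summed. They were not the same library deposited again, since their counts differed by more than sampling noise (smallest chi-square over its degrees of freedom 10.2).

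The main test was the quasi-likelihood test of edgeR 4.0.16 in R 4.3.3, after TMM scaling and filterByExpr (at least 10 counts in enough mice and 15 in total). Benjamini-Hochberg adjustment ran over all genes that passed, at 0.05. Genotype was fitted apart in young and in aged mice, and the interaction and age in all 17 mice. In these fits 172, 177 and 189 of the 199 members passed. The counts cover every member, and 1 that met the naming rule below is not reported here. SE was computed as the size of the log2 value over the root of F. The study used likelihood ratio tests in edgeR, which were run here as an alternative over mice and over libraries. Over libraries, both libraries of a mouse enter as separate samples, so the mouse is not the replicate in that test. Other alternatives were DESeq2 1.42.0, its size factors, no filter, a minimum of 30 counts, a Y-linked covariate, a replicate block, one fit of all mice and leaving out each mouse. Scripts were tested on simulated data. The sources do not tie mice to cages or litters by number, and p-values measure the spread between these mice.

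The members and lists were chosen with earlier results of these data known. Members were named by rule: the called ones (at most 15 a comparison, by adjusted p), up to 8 in each direction that had an unadjusted p below 0.05 and groups that do not overlap, the 5 with the smallest p for the interaction, Slc20a2, and the 2 with the highest CPM per kb in each role. Outside it, Slc2a1, Slc7a6, Slc11a2, Slc16a10, Slc25a3, Slc25a11, Slc25a39, Slc38a2, Slc38a6, Slc43a2 and Mpc2 were chosen after their values were seen. Promoters, from RefSeq, were matched by symbol for 149 member genes.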

Additional observations from a re-analysis of the deposited data

Results flagged for a closer look

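Within groups of 4 or 5 mice, 12 levels of the carriers examined stood farther from their group than Dixon's 95% limit. Among 191 groups examined, chance gives about 1 in 20, or 9.55. Aged Ythdf2CKO mouse 121, whose Ythdf2 level goes against its label, was the highest of its group for the ion carrier Slc12a7 (32.8 CPM, next 24.1 CPM), the nucleoside carrier Slc29a1 (147 CPM, next 109 CPM) and the zinc carrier Slc39a7 (126 CPM, next 76.8 CPM). Young Ythdf2CKO mouse 3 was the highest for the mitochondrial carriers Slc25a27 (31.6 CPM, next 16.8 CPM) and Slc25a37 (71.3 CPM, next 41.5 CPM).

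The zinc carrier Slc30a4 stood out in a young and an aged Ythdf2CKO mouse, at 26.9 CPM in young mouse 1 (next 8.80 CPM) and at 8.08 CPM, the lowest, in aged mouse 81 (next 11.4 CPM). The monocarboxylate carrier Slc16a7 was at 20.4 CPM in young Ythdf2CTL mouse 1 (next 6.24 CPM), and Slc16a9 at 51.6 CPM in aged Ythdf2CTL mouse 99 (next 9.31 CPM), for which 1 library was used. Slc16a11 was at 0.487 CPM in aged Ythdf2CKO mouse 81 and listed at 0 in the other 4. Slc25a5 was at 2022 CPM in young Ythdf2CKO mouse 2 (next 1734 CPM), and Slc35a4 was at 107 CPM, the lowest, in young Ythdf2CTL mouse 2 (next 179.6 CPM).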

How the results depend on the processing

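The counts of called members moved by over 1.5 times in these fits. Between genotypes in young mice the likelihood ratio test over mice, that over libraries and DESeq2 each called 1 member (0.581%, 0.850% and 0.668% of all genes), against 0 by the quasi-likelihood test (0.174%), and leaving out a mouse gave 0 to 1. In aged mice they called 3, 10 and 3 (0.635%, 3.73% and 0.869% of all genes), against 0 by the quasi-likelihood test (0%). Between aged and young Ythdf2CKO mice the likelihood ratio test over libraries called 45 (26.5% of all genes), against 25 (16.6%) by the quasi-likelihood test, and leaving out a mouse gave 16 to 29 (9.46% to 15.8%). In Ythdf2CTL mice leaving out a mouse gave 4 to 22 (7.17% to 16.5%), against 15 (14.8%) with all mice. The interaction called 0 members in every fit, where 0% to 0.121% of all genes were called. Of 948 fits of single members, 843 kept direction and side of the threshold, 82 lost a call, 22 gained one and 1 changed sign: Slc20a2 in young mice was -0.23, with -0.48 to 0.032 on the log2 scale when a mouse was left out, the positive value being without young Ythdf2CTL mouse 3. The cause was not tested. Young mice of both genotypes share the numbers 1 to 4, but same-numbered mice did not deviate together (r of 0.0501, -0.0195, 0.0381 and 0.00616), and with a replicate block 0 members and 14 genes were called (20 without). Without aged mice 121 and 124 no member was called between genotypes, where 40 genes were (0 with them). Depth limits the low carriers most: Slc40a1, Slc16a11 and Slc27a3 rest on 0 counts in some mice, and other prior counts were not tried.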
